A study of Homo sapiens with 8 samples.

Results

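The genes described here are 10 transcription factor genes of the AP-1 and immediate early class: FOS, FOSB, FOSL1, FOSL2, JUN, JUNB, JUND, ATF3, EGR1 and NR4A1. They were picked by gene symbol from a table of 58870 genes, each symbol matched 1 row, and all 10 passed the filter on low counts that left 14785 genes for testing. RNA was sequenced from CFPAC-1, a human line of pancreatic ductal adenocarcinoma. Of the 8 samples, 4 carried an empty vector and 4 carried a transgene for ADRA2A, the alpha-2A adrenergic receptor. Both groups were grown for 72 hours in the same serum-containing medium, and neither received a drug or an added receptor agonist per the labels. The promoter that drives the transgene, and whether a group is 1 clone, 1 transduced pool or several, were not given in the sources used here. Separate cultures were not stated either, so the p-values measure the spread between these samples, which may be technical.

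AP-1 is a dimer of leucine zipper proteins. A FOS family protein (FOS, FOSB, FOSL1, also called FRA1, or FOSL2, also called FRA2) pairs with a JUN family protein (JUN, JUNB or JUND), whereas JUN proteins can also pair with each other and with ATF family members such as ATF3. Immediate early genes are switched on within minutes of a signal, with no need for new protein synthesis, mostly through serum response factor and its ternary complex partners downstream of ERK and through CREB downstream of cyclic AMP and calcium. The alpha-2A receptor couples to Gi proteins, which lower cyclic AMP, and the released beta-gamma subunits can feed into the ERK cascade. In epithelial tumours with an active RAS pathway FOSL1 is typically the prominent FOS family member, and it is held at a steady level by ERK signalling, while FOS appears briefly after stimulation.

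The regulatory sequence upstream of these genes is shown first because several of the 10 share the elements that such signals act through. RefSeq promoter windows of GRCh38.p14, from 250 bases before to 50 bases after the annotated start, were found for 9 of the 10 genes, all except FOSL1. In every one of them the window equalled the hg38 sequence at the same coordinates, so the 300 bases further upstream (550 to 251 bases before the start) were read from hg38 as well. A CRE, the cyclic AMP response element bound by CREB and ATF proteins, was searched as TGACGTCA and as its core TGACG, which every full CRE also contains and which is called the CRE core here. The serum response element was searched by its CArG box core, the AP-1 site as TGANTCA, the site of EGR factors as GCGNGGGCG, and the monomer site of NR4A factors as AAAGGTCA, each on both strands. A match describes letters only and was not tested as a binding site.

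FOS, the gene with the largest change, carries a serum response element 314 bases and a CRE core 64 bases before its start. The window printed spans both, chromosome 14 from 75278478 to 75278777 on the plus strand, 350 to 51 bases before the start of transcription. Capitals mark the serum response element and the cores, which lie on either strand.
FOS: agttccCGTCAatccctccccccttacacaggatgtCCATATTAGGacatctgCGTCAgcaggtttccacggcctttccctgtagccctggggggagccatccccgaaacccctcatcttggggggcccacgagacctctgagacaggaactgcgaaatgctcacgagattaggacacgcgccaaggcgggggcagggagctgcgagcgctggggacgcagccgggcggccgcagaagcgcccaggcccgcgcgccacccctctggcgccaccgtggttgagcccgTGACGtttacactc

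EGR1, the zinc finger factor induced beside FOS in most cells, has 5 serum response elements within 550 bases of its start. The start window, chromosome 5 from 138465229 to 138465528 on the plus strand, holds 2 of them, at 105 and 83 bases before the start, together with CRE cores and an EGR site, all in capitals.
EGR1: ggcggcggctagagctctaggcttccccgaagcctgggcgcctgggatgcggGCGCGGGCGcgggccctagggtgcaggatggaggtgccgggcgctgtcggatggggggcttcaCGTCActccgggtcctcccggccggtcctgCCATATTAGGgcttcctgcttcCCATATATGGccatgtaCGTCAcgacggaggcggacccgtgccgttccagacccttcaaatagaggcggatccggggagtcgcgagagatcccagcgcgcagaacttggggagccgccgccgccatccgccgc

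JUNB and JUN are shown because they changed in opposite directions. The JUNB window is chromosome 19 from 12791236 to 12791535 on the plus strand and has a CRE core 137 bases before the start, in capitals. The JUN window is chromosome 1 from 58783998 to 58784297, read on the minus strand. Its capitals mark a CRE core at 123 and the CRE-like variant TGACATCA at 67 bases before the start, the variant known to bind JUN with ATF2.
JUNB: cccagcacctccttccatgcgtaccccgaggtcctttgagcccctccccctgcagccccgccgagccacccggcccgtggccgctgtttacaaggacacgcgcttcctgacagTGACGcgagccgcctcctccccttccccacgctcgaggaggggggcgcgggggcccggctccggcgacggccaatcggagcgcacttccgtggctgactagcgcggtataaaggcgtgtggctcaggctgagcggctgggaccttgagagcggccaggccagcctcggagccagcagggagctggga
JUN: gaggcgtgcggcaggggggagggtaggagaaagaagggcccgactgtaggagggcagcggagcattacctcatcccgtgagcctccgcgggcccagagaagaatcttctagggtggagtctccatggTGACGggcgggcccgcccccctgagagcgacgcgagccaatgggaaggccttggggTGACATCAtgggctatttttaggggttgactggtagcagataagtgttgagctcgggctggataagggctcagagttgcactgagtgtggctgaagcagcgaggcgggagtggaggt

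Serum response elements were found in 3 of the 9 genes, FOS, FOSB and EGR1, with 7 matches in all. Across all 35116 promoter windows of the same table, 1.29% held such a match in the start region and 1.48% in the region upstream of it. A CRE core was present in the start window of 7 of the 9 genes (24.6% of all start windows), and the full CRE in that of JUND only (1.85%). FOSB and ATF3 each held a full CRE in a region upstream (0.396% of all upstream regions), that of ATF3 belonging to the latter of its 2 RefSeq windows. The CRE-like variant stood in the start windows of JUN and ATF3 (2.61% of all). FOSL2 had the single AP-1 site, 5 bases into the transcript (7.71% of start windows). EGR sites were found upstream in FOSB, JUND and NR4A1 (3.98%) and in the start window of EGR1 (9.43%), and an NR4A site in that of ATF3 (1.22%). No motif searched was found at the former of the 2 RefSeq windows of NR4A1. Any other start of NR4A1 or ATF3 was not searched, so a motif there would be missed.

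Library totals lay between 14427040 and 17528910 estimated counts, and mitochondrial genes took between 3.93% and 4.29% of a library. The transgene label held in every library: ADRA2A had 0 counts in all 4 empty-vector libraries and between 112 and 172 in the ADRA2A libraries, at least 49.2-fold more than the 3 counts per library that a count of 0 allows. The epithelial markers EPCAM, KRT7, KRT8, KRT18, KRT19, CDH1 and MUC1 were all detected, at a summed level of 12010 to 12490 counts-per-million (CPM) in the empty-vector and 11970 to 12940 CPM in the ADRA2A libraries, while CFTR had at most 20 counts in a library and was not tested. That sum hides shifts both ways in the edgeR fit described below. At its threshold MUC1 (log2 fold change 0.79), KRT19 (0.20) and EPCAM (0.11) were higher in the ADRA2A cells. KRT7 (-0.43), CDH1 (-0.33) and KRT18 (-0.09) were lower, and KRT8 was not called. Over all tested genes 42.7% were called. Of 8 fibroblast markers, 6 were under the filter, among them COL3A1 with at most 1 count and PDGFRB and DCN with at most 5. Of 6 leukocyte markers CD3E had 0 counts and PTPRC at most 4, and of 3 endothelial markers CDH5 had at most 1. Those tested were COL1A1 and LUM, CD68, CD14 and LYZ, and PECAM1. The summed level of the fibroblast list was 78.6 to 81.9 CPM in the empty-vector and 23.8 to 26.4 CPM in the ADRA2A libraries, that of the leukocyte list 121.3 to 132.8 and 198.0 to 211.1 CPM, and that of the endothelial list 0.823 to 1.48 and 2.15 to 2.86 CPM. The fibroblast sum was nearly all COL1A1 (mean 78.4 CPM in the empty-vector and 23.9 CPM in the ADRA2A libraries). The leukocyte sum was mainly CD68 (91.6 and 114.3 CPM) and LYZ (31.9 and 89.7 CPM), and the endothelial sum mainly PECAM1 (0.773 and 2.44 CPM). The fibroblast, leukocyte and endothelial sums thus follow single genes and not the marker lists as a whole. The part of these genes in the results below was not tested.

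Values below are CPM after TMM scaling, which corrects library sizes for composition, given for replicates 1 to 4 of a group in that order. Fold changes are ADRA2A over empty vector on the log2 scale, from edgeR's quasi-likelihood test fitted to all genes, with Benjamini-Hochberg adjusted p-values over the 14785 genes and a threshold of 0.05. At that threshold 42.7% of all tested genes were called, 21.6% higher and 21.1% lower in the ADRA2A cells. Of the 10 genes 4 were called, FOS and JUNB higher and FOSL1 and JUN lower. That share is close to the background, so the number of changes does not set these genes apart, and the description below concerns which member moved, which way and how far.

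**Figure D1:**
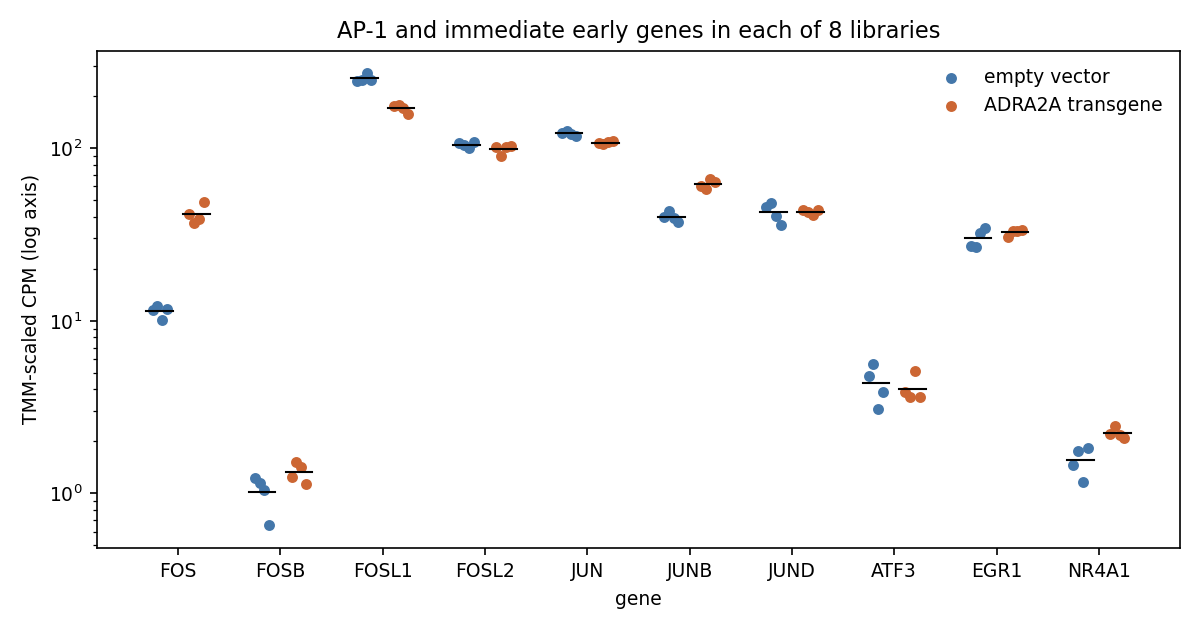
TMM-scaled CPM (log axis) of the 10 genes in each library, with empty-vector libraries in blue, ADRA2A libraries in orange and a black bar at the mean of each group of 4. FOS shifted from about 11.4 to 41.3 CPM with a clear gap between the groups, FOSL1 and JUN shifted down and JUNB up without overlap, and FOSB, ATF3 and NR4A1 lay near or under 5 CPM.

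The FOS family went in opposite directions. FOS (ENSG00000170345.10; GRCh38 chromosome 14, 75278826 to 75282230, plus strand, 4 exons) encodes the classical short-lived AP-1 subunit. It had 11.5, 12.2, 10.1 and 11.7 CPM in the empty-vector libraries and 41.4, 36.6, 38.8 and 48.5 CPM in the ADRA2A libraries. The lowest ADRA2A library was thus more than 3 times the highest empty-vector library. FOS rose 3.64-fold, a log2 fold change of 1.87 ± 0.09 (SE of the edgeR fit; adjusted p = 2.23e-12). Only 1.28% of all tested genes had an absolute log2 fold change as large. The counts behind these values were 173 to 197 per empty-vector library and 555 to 766 per ADRA2A library.

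FOSL1 (ENSG00000175592.8; chromosome 11, 65892049 to 65900573, minus strand, 4 exons) encodes FRA1 and was the most abundant of the 10 genes. Its empty-vector libraries held 245.9, 248.2, 270.8 and 248.4 CPM and its ADRA2A libraries 174.9, 176.4, 169.8 and 158.1 CPM. The groups did not overlap, and the spread within each was under 5% of its mean (4.61% and 4.88%). FOSL1 fell by 0.58 ± 0.04 on the log2 scale (SE of the edgeR fit; adjusted p = 1.12e-09), to 0.670 of its empty-vector level. With at least 2500 counts in every library, it was the most deeply counted of the 10.

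FOSL2 (ENSG00000075426.12; chromosome 2, 28392448 to 28417317, plus strand), which encodes FRA2, had 106.8, 104.7, 99.6 and 107.7 CPM in the empty-vector and 101.6, 89.9, 100.8 and 102.3 CPM in the ADRA2A libraries. The groups overlapped and the gene was not called, with a log2 fold change of -0.08 and a 95% interval of -0.18 to 0.01 (edgeR adjusted p = 0.151). FOSB (ENSG00000125740.14; chromosome 19, 45467995 to 45475179, plus strand), the subunit best known from chronically stimulated neurons, was counted 10 to 25 times per library, or 1.02 ± 0.26 CPM in the empty-vector and 1.33 ± 0.17 CPM in the ADRA2A cells (± SD over 4 libraries each). Its log2 fold change of 0.38 had a 95% interval of -0.22 to 0.98 (edgeR adjusted p = 0.305), so the change seen for FOS lay outside the interval, while changes within it could not be told from 0 at this depth. FOSB lies on the opposite strand within the annotated span of ERCC1, which had 649 to 940 counts, and because the use of strand is not given the division of reads between the pair is uncertain.

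In the JUN family JUNB and JUN parted. JUNB (ENSG00000171223.6; chromosome 19, 12791486 to 12793315, plus strand, 1 exon) encodes a subunit that can act as a weaker activator than JUN and can compete with it. It had 40.1, 43.2, 39.3 and 37.2 CPM in the empty-vector and 60.7, 58.1, 66.3 and 63.9 CPM in the ADRA2A libraries. Every ADRA2A library was above every empty-vector library, and JUNB rose 1.56-fold (log2 fold change 0.64 ± 0.06, SE of the edgeR fit; adjusted p = 1.71e-08). JUNB lies on the opposite strand inside the annotated span of HOOK2. HOOK2 was counted 98 to 174 times per library against 568 to 1157 times for JUNB, and HOOK2 fell, with a log2 fold change of -0.35 ± 0.12 (SE of the edgeR fit; adjusted p = 0.0196). Because the use of strand is not given, the division of reads between JUNB and HOOK2 is uncertain too, and its part in these changes was not tested.

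JUN (ENSG00000177606.6; chromosome 1, 58776845 to 58784048, minus strand, 1 exon in its principal transcript) encodes c-JUN, the main partner of FOS proteins. Its values were 122.7, 126.2, 119.9 and 117.4 CPM in the empty-vector and 106.3, 105.4, 108.8 and 109.4 CPM in the ADRA2A libraries. The groups did not overlap, though the gap between the lowest empty-vector and the highest ADRA2A library was small. JUN fell by 0.18 ± 0.04 on the log2 scale (SE of the edgeR fit; adjusted p = 0.000978), about the median absolute log2 fold change of all tested genes, 0.18. JUND (ENSG00000130522.5; chromosome 19, 18279694 to 18281622, minus strand, 1 exon), the subunit that is present in resting cells, had 45.6, 48.0, 40.6 and 35.9 CPM in the empty-vector and 43.6, 42.8, 41.1 and 43.8 CPM in the ADRA2A libraries. The means of 42.5 and 42.8 CPM were nearly equal, and the log2 fold change of 0.01 had a 95% interval of -0.14 to 0.16 (edgeR adjusted p = 0.922).

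**Figure D2:**
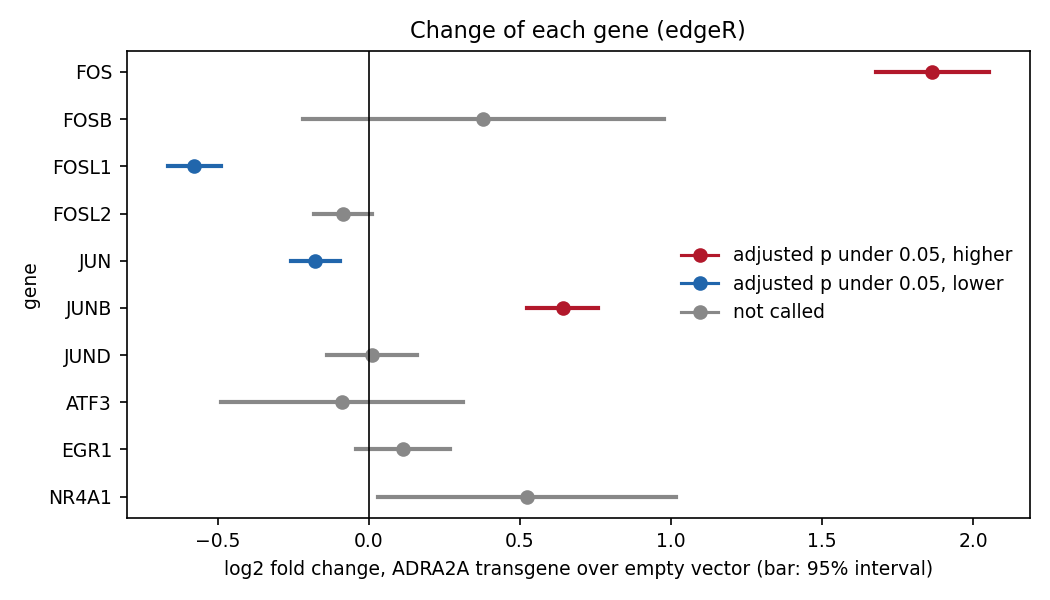
Log2 fold change of each gene, ADRA2A over empty vector, with its 95% interval from edgeR's quasi-likelihood fit (n = 4 libraries a group). FOS (1.87) and JUNB (0.64) lay above 0 and FOSL1 (-0.58) and JUN (-0.18) below it, and the widest intervals belong to the thinly counted FOSB, NR4A1 and ATF3.

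ATF3, EGR1 and NR4A1 are the members outside the FOS and JUN families. EGR1 (ENSG00000120738.8; chromosome 5, 138465479 to 138469303, plus strand, 2 exons) is induced with FOS by serum and growth factors. It had 27.2, 26.7, 32.3 and 34.4 CPM in the empty-vector and 30.7, 33.1, 33.0 and 33.7 CPM in the ADRA2A libraries, and the groups overlapped. The log2 fold change of 0.11 had a 95% interval of -0.04 to 0.27 (edgeR adjusted p = 0.236), which is well under the change of FOS. EGR1 therefore did not show the rise of FOS. Within 550 bases of the start EGR1 holds 5 serum response elements and FOS 1, and both hold CRE cores. The part of these elements in either level was not tested.

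ATF3 (ENSG00000162772.17; chromosome 1, 212565334 to 212620777, plus strand), a stress-induced partner of JUN proteins, had 4.80, 5.63, 3.08 and 3.86 CPM in the empty-vector and 3.88, 3.63, 5.10 and 3.61 CPM in the ADRA2A libraries. The groups overlapped fully, and the log2 fold change of -0.09 had a 95% interval of -0.49 to 0.31 (edgeR adjusted p = 0.740). NR4A1 (ENSG00000123358.20; chromosome 12, 52022832 to 52059507, plus strand), an orphan nuclear receptor and a textbook target of CREB, had 1.46, 1.76, 1.16 and 1.83 CPM in the empty-vector and 2.22, 2.44, 2.18 and 2.09 CPM in the ADRA2A libraries. Its libraries did not overlap between the groups, but at 20 to 38 counts per library the gene was not called, with a log2 fold change of 0.52 ± 0.24 (SE of the edgeR fit; adjusted p = 0.0806; lowest 0.0603 and highest 0.212 over the alternatives). In all, 5 of the 10 genes had groups that did not overlap, the 4 called and NR4A1, against 39.2% of all tested genes. Among all tested genes 19.7% did not overlap and were higher and 19.5% did not overlap and were lower in the ADRA2A cells.

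For 7 of the 10 genes, JUND, EGR1 and NR4A1 among them, the empty-vector replicates were more spread than the ADRA2A replicates. The coefficient of variation was 12.7% against 2.87% for JUND, 12.6% against 3.95% for EGR1 and 19.8% against 6.77% for NR4A1. FOS had the opposite order, 8.02% against 12.4%. Empty-vector replicate 4 had the lowest JUND, JUNB, JUN and FOSB of its group and the highest EGR1 and NR4A1, and ADRA2A replicate 4 had the highest FOS and the lowest FOSL1 of its group. Counting error weighs on the spread of thinly counted genes, such as NR4A1 (20 to 38 counts per library), FOSB (10 to 25) and ATF3 (53 to 89). These differences in spread were not tested, and the same count was not made over all tested genes.

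To compare genes with each other, counts were divided by the length of the union of each gene's exons and scaled to transcripts-per-million (TPM). In the empty-vector cells the order was FOSL1 (534.6 ± 21.3 TPM), JUN (133.6 ± 3.62), JUND (87.7 ± 10.8), JUNB (86.9 ± 4.83), FOSL2 (58.2 ± 2.62), EGR1 (38.3 ± 4.96), FOS (14.2 ± 1.20), ATF3 (4.33 ± 1.10), NR4A1 (0.850 ± 0.171) and FOSB (0.732 ± 0.182; SD over 4 libraries each). JUND and JUNB overlapped in range, as did NR4A1 and FOSB, and the other neighbours in that order were apart. In the ADRA2A cells FOSL1 was still first (359.9 ± 17.8 TPM), JUNB (136.0 ± 7.59) stood above JUN (118.6 ± 2.36), and FOS (51.9 ± 6.77) stood between FOSL2 (55.1 ± 3.62), whose range it overlapped, and EGR1 (41.6 ± 1.38). With the length of the longest transcript in place of the exon union, FOS (57.1 TPM) exceeded FOSL2 (42.7 TPM) in the ADRA2A cells, and JUNB (98.8 TPM) and JUN (95.9 TPM) came close together, so the order of FOS and FOSL2 and the distance between JUNB and JUN depend on the length used.

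Within the FOS family, FOSL1 supplied 87.9% ± 0.89 of the summed TPM in the empty-vector cells and 76.9% ± 2.28 in the ADRA2A cells (± SD over 4 libraries each). The part of FOS went from 2.34% ± 0.26 to 11.1% ± 1.59, and that of FOSL2 from 9.60% ± 0.64 to 11.8% ± 0.82. The summed level of the family was 591.8 to 633.7 TPM in the empty-vector and 455.8 to 487.2 TPM in the ADRA2A libraries. The decline of FOSL1 in TPM thus exceeded the gain of FOS, and FOSL1 transcripts still outnumbered FOS transcripts by 5.51 to 8.13 times in the ADRA2A libraries, compared with 34.5 to 45.5 times in the empty-vector libraries. With the longest transcript these ranges were 4.04 to 5.95 and 25.3 to 33.3 times.

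Within the JUN family, JUN made up 43.4% ± 1.57 of the summed TPM in the empty-vector cells, JUNB 28.2% ± 0.42 and JUND 28.4% ± 1.80 (± SD over 4 libraries each). In the ADRA2A cells the parts were 34.5% ± 0.34 for JUN, 39.6% ± 1.34 for JUNB and 25.9% ± 1.08 for JUND. The ratio of JUN to JUNB was 1.47 to 1.59 in the empty-vector libraries and 0.829 to 0.916 in the ADRA2A libraries, so by exon-union length JUNB exceeded JUN in the 4 ADRA2A libraries. With the longest transcript the ratio was 1.64 to 1.77 and 0.923 to 1.02, and JUN was above JUNB in ADRA2A replicate 2. The ratio was thus lower in the ADRA2A libraries by either length, without overlap, whereas which of the 2 transcripts leads there depends on the length. The summed level was 308.2 ± 18.9 and 343.4 ± 9.89 TPM. These shares describe transcripts, not protein or dimers, and carry no test.

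**Figure D3:**
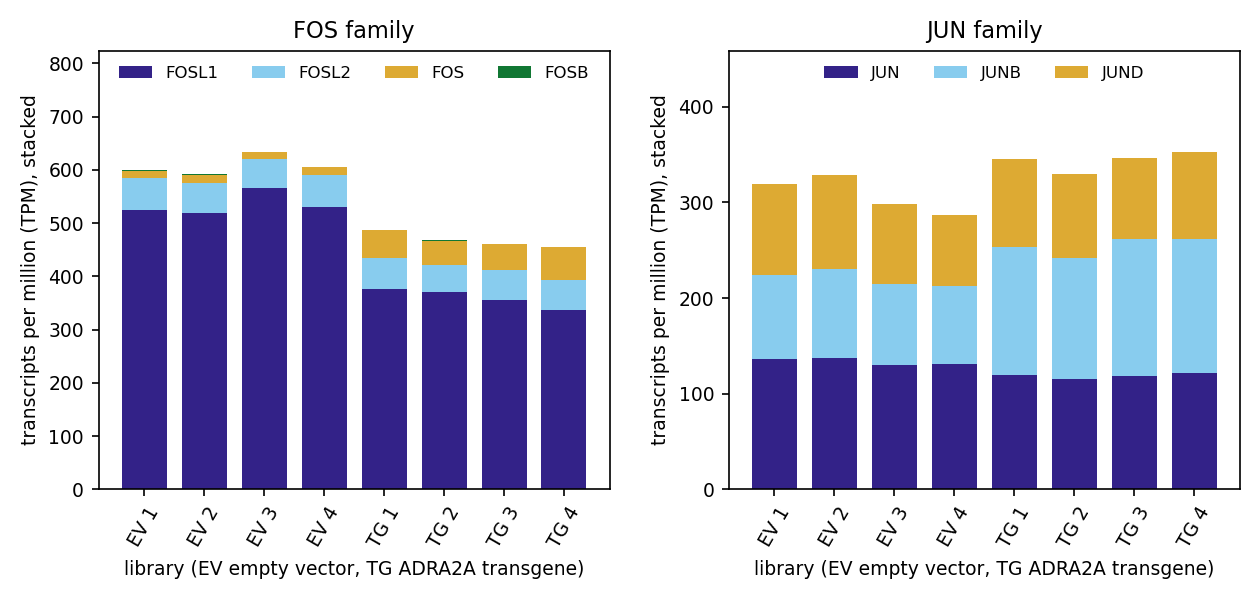
Stacked TPM of the FOS family (FOSL1, FOSL2, FOS, FOSB) and of the JUN family (JUN, JUNB, JUND) in each library, EV for empty vector and TG for the ADRA2A transgene. FOSL1 fills most of the FOS family bar in all 8 libraries while the FOS segment is thicker in the 4 ADRA2A libraries, and the JUNB segment exceeds the JUN segment in those 4 only, by the exon-union length plotted.

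To place each change in its surroundings, the 10 tested genes on each side of every member were examined. Over all tested genes, 21.6% were called higher and 21.1% lower. FOS lay among 20 neighbours whose median log2 fold change was -0.14 (SD 0.32), or -0.08 with 5 genes a side. Of the 20, 6 were higher, 2 were called higher and 5 called lower, so most did not share its rise. JUN fell among neighbours with a median of 0.19 (SD 0.31), of which 16 of 20 were higher and 8 were called higher. JUNB stood among neighbours with a median of -0.04. FOSL1 moved the same way as its neighbours, whose median was -0.15 with 9 of 20 called lower and 0 called higher, although its own change of -0.58 was larger than that median. For NR4A1 the median was 0.03 over 10 genes a side and -0.43 over 5 a side, with 6 of those 10 called lower. The part of such regional shifts in the changes of these genes was not tested.

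**Figure D4:**
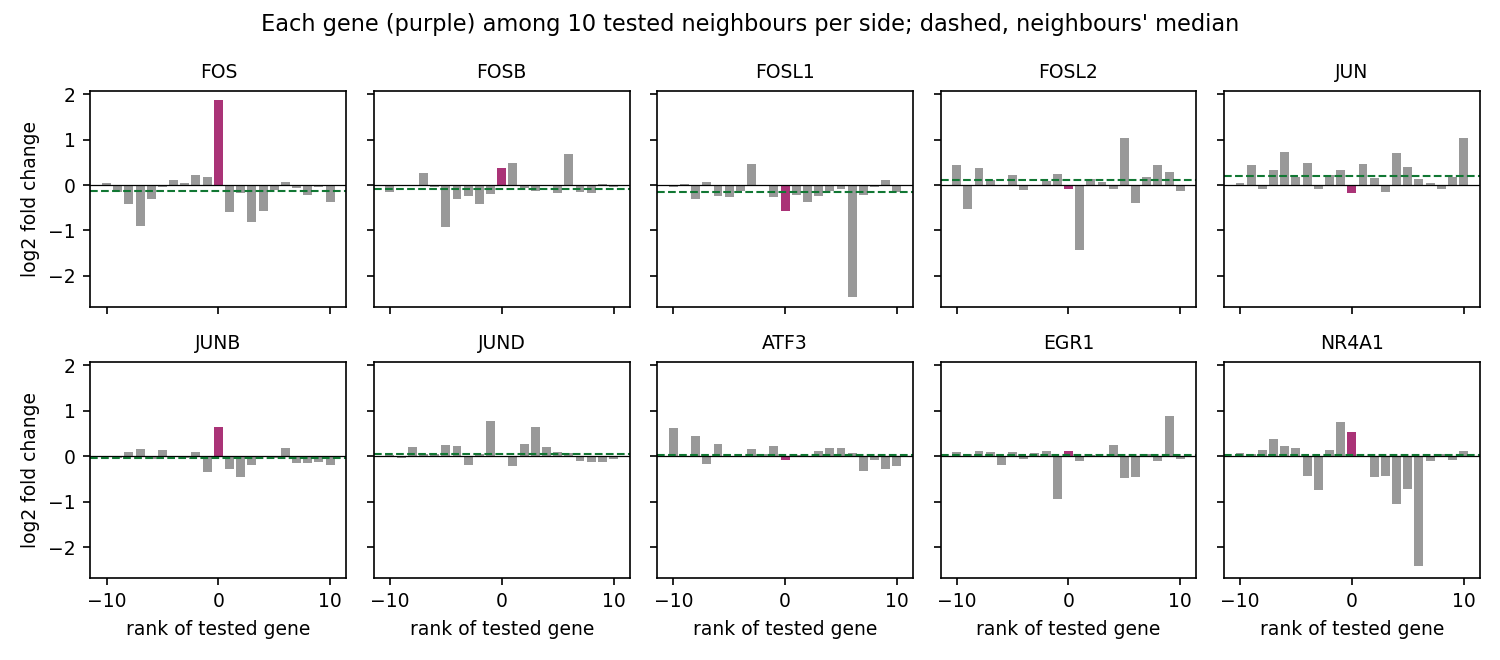
Log2 fold change of each member (purple, rank 0) and of the 10 tested genes before and after it along its chromosome (grey), with the neighbours' median as a dashed line. FOS (1.87) and JUNB (0.64) stand out from neighbours whose medians were -0.14 and -0.04, whereas FOSL1 (-0.58) lies below neighbours that were mostly lower as well.

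Other genes of the immediate early response were read from a list of 26, of which 21 were tested. EGR2, EGR3, EGR4, NR4A3 and ARC, with at most 8 counts in any library, were not. Of the 21, 6 rose, 9 fell and 6 were not called, and the median log2 fold change was -0.06 against 0.00 over all tested genes. Of all tested genes, 21.6% were called higher and 21.1% lower. CCN1, a secreted matricellular protein and target of both SRF and YAP, fell from 403.4 ± 14.7 to 259.2 ± 6.09 CPM (mean ± SD over 4 libraries each; log2 fold change -0.64, edgeR adjusted p = 1.70e-11), and its relative CCN2 fell by 0.45 on the log2 scale. MYC, the growth-promoting factor, fell by 0.33 from 181.3 to 144.4 CPM. ZFP36, which encodes the RNA-decay factor tristetraprolin, rose from 32.2 ± 2.47 to 43.2 ± 3.06 CPM (± SD over 4 libraries each), which edgeR fitted as 0.43 on the log2 scale (adjusted p = 2.23e-05).

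The leucine zipper factors that pair with FOS and JUN proteins also moved both ways. Of 11 listed 8 were tested, and 3 rose, 3 fell and 2 were not called (median log2 fold change -0.15), beside 42.7% called over all tested genes. Without empty-vector replicate 3 the number that fell was 5, with JDP2 and MAFG added. BATF, which pairs with JUN proteins and lacks an activation domain, fell from 10.6 ± 1.28 to 6.06 ± 0.55 CPM (mean ± SD over 4 libraries each; log2 fold change -0.81, edgeR adjusted p = 1.38e-05). Its relative BATF2 rose by 0.43 on the log2 scale and ATF2, the partner of JUN at CRE-like sites, by 0.24. MAFK, a small MAF protein, fell by 0.28.

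Upstream of the members, all 16 listed factors and kinases were tested. Of these, 4 rose, 3 fell and 9 were not called (median log2 fold change -0.01), beside 42.7% called over all tested genes. Without ADRA2A replicate 4 the number that fell was 6, with ELK4, MAPK9 and SRF added. The changes were small. RPS6KA3, the ERK-activated kinase RSK2, rose by 0.39 on the log2 scale, MAPK3, which encodes ERK1, by 0.35 and MEF2A, a factor at the JUN promoter, by 0.25, whereas MAPK8, which encodes the JUN kinase JNK1, fell by 0.23. SRF, the serum response factor itself, was not called, with 68.0 ± 1.56 CPM in the empty-vector and 62.2 ± 4.83 CPM in the ADRA2A cells (± SD over 4 libraries each; edgeR adjusted p = 0.0549 with all libraries). These are transcript levels and say nothing of kinase activity.

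Among 6 genes that restrain the members, all tested, only DUSP1 was called, and HDAC5 was called higher as well without empty-vector replicate 2 and with no filter on low counts. The share called over all tested genes was 42.7%. DUSP1 encodes a phosphatase of MAP kinases and is an immediate early gene too. It had 6.38, 6.38, 7.55 and 6.74 CPM in the empty-vector and 11.7, 8.58, 11.2 and 10.6 CPM in the ADRA2A libraries and rose by 0.63 ± 0.12 on the log2 scale (SE of the edgeR fit; adjusted p = 0.000182). The EGR1 corepressor gene NAB1 (log2 fold change 0.09), FBXW7 (-0.05), which encodes a ubiquitin ligase component for JUN, and HDAC5 (0.16) were not called.

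Textbook targets of AP-1 numbered 22 on the list and 17 were tested, and 3 rose, 9 fell and 5 were not called (median log2 fold change -0.22). Among them MMP1, which rose, and GJA1, which fell, passed the low-count filter only through the group where each was higher. Under the filter at a mean of 50 counts 2 rose and 7 fell, and GJA1, IL6 and MMP1 were not tested. Over all tested genes 21.6% were called higher and 21.1% lower, with a median of 0.00. The list was chosen with earlier results of these data known, and its share of calls was not tested. The integrin gene ITGA2 fell from 153.1 ± 6.05 to 89.0 ± 5.09 CPM (± SD over 4 libraries each), which edgeR fitted as -0.78 on the log2 scale (adjusted p = 4.35e-11). HBEGF, an EGF receptor ligand, fell by 0.73 and the cyclin D1 gene CCND1 by 0.43 on the log2 scale. The matrix metalloprotease gene MMP7 rose, from 1355 ± 81.6 to 1858 ± 43.8 CPM (mean ± SD over 4 libraries each; log2 fold change 0.46, edgeR adjusted p = 4.42e-09). PLAU and CD44, both abundant, were not called, with log2 fold changes of -0.03 and 0.02. No test here links FOS, FOSL1 or any other member to these genes.

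**Figure D5:**
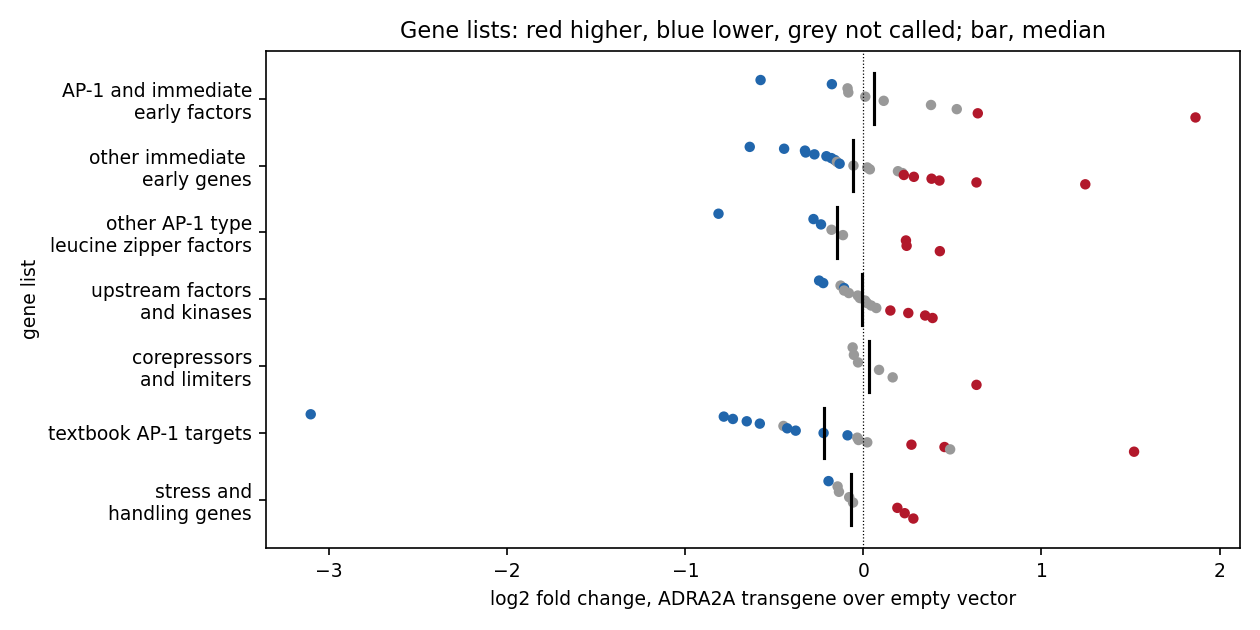
Log2 fold changes (ADRA2A over empty vector) of every tested gene in 7 lists, with red for genes called higher, blue for genes called lower, grey for genes not called and a black bar at the list's median. The lists of immediate early genes, zipper factors and kinases spread to both sides of 0, and the AP-1 target list has its median at -0.22.

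Stress or handling of cells before lysis can also induce FOS, ATF3 and EGR1, so 8 genes of heat shock and acute stress were read beside them. All 8 were tested, of which 3 rose, 1 fell and 4 were not called, beside 42.7% called over all tested genes. The number that fell was 3 with upper quartile factors, with DNAJB1 and HSPH1 added. It was 2, with HSPH1 added, without empty-vector replicate 2, without empty-vector replicate 4, without ADRA2A replicate 2, and under the filter at a mean of 50 counts. HSPA1B rose by 0.23, HSPA1A by 0.19 and TXNIP by 0.28 on the log2 scale, and HSPA8 fell by 0.20. HSPA1A and HSPA1B are near-identical copies, so the division of reads between them is uncertain. The summed level of the 8 genes was 2621 to 2742 CPM in the empty-vector and 2523 to 2656 CPM in the ADRA2A libraries. HSPA8 held the largest part of that sum (mean 1467 and 1281 CPM), so the sum hides the rise of HSPA1A, HSPA1B and TXNIP. The part of the 8 genes in the rise of FOS was not tested.

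The genes with a mean of at least 10 CPM whose pattern over the 8 libraries was most like that of FOS were DEPTOR, HABP2 and SERPING1. Likeness was the root mean square difference between log2 CPM values, each gene centred on its own mean, and 10151 genes were compared. The differences were 0.104 for DEPTOR, 0.110 for HABP2 and 0.117 for SERPING1, and these genes went from 10.4 to 34.6, from 24.9 to 87.2 and from 8.55 to 31.4 CPM. For EGR1 the nearest were WDR17, FOXC2 and WDR60, at 0.0515, 0.0564 and 0.0588, none of them called. The measure includes the difference between the groups, so the nearest genes must change by about as much as the member, and this is no separate result. FOSB, NR4A1 and ATF3 were under the CPM minimum and were not compared.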

How the data were processed

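RNA of 4 empty-vector and 4 ADRA2A samples was sequenced. The authors deposited RSEM estimated counts per gene, not scaled between samples, on hg38. The submitters' processing notes name cutadapt, STAR, RSEM and DESeq2 without settings. The annotation release and strand use are not given in the sources used here. All 8 columns were matched to samples by the names in the sample titles. Between 4.61% and 4.90% of a sample's entries had decimals and were rounded.

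Genes were filtered with filterByExpr, scaled by TMM and tested with edgeR 4.0.16 (glmQLFit, glmQLFTest; R 4.3.3) with the group as the only term, and adjusted by Benjamini-Hochberg. The standard error is the absolute log2 fold change over the square root of F. The script was tested on simulated data. Positions and lengths came from GENCODE 44 (58517 of 58870 identifiers matched). Alternatives were RLE and upper quartile factors, DESeq2 1.42.0, limma voom 3.58.1, 2 other filters, the replicate block, leaving out each library, another length and another window. Log2 CPM for likeness used a prior count of 2. The 10 genes were named whatever their result. From each list the 4 genes with the smallest p-value were named, and other genes were named after their values were seen. The members and lists were chosen with earlier results of these data known. Intervals and floors cover counting error and the spread of these samples only.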

Additional observations from a re-analysis of the deposited data

Results flagged for a closer look

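In groups of 4 libraries, a library was singled out when its gap to the nearest other exceeded Dixon's 95% critical share of the group's range. Of 68 groups examined, 5 had such a library, where chance gives about 1 in 20. FOSL1 was highest in empty-vector replicate 3, at 270.8 CPM against 245.9 to 248.4 CPM in the other 3 libraries. FOSL2 was lowest in ADRA2A replicate 2, at 89.9 CPM against 100.8 to 102.3 CPM. HBEGF was highest in empty-vector replicate 2, at 58.6 CPM against 50.9 to 51.9 CPM. HSPA1B was lowest in empty-vector replicate 1, at 194.6 CPM against 202.6 to 202.9 CPM, and HSPA8 was lowest in ADRA2A replicate 4, at 1211 CPM against 1301 to 1308 CPM. The 5 cases fell in 5 different libraries.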

How the results depend on the processing

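The calls of FOS, FOSL1, JUN and JUNB kept their direction and their side of the threshold in all 15 alternative fits. The log2 fold change lay between 1.78 and 1.92 for FOS, -0.59 and -0.54 for FOSL1, -0.19 and -0.16 for JUN, and 0.61 and 0.68 for JUNB. None of the other 6 genes was called in any alternative that tested it; FOSB and NR4A1 were not tested under the filter at a mean of 50 counts. JUND, not called, changed sign with upper quartile factors (-0.0070), without empty-vector replicate 3 (-0.013), without empty-vector replicate 4 (-0.061) and without ADRA2A replicate 4 (-0.00084), and reached 0.071 at most with a library left out. ATF3, not called, changed sign without empty-vector replicate 2 (0.055) and reached -0.23 at least with another library left out. The list of genes that restrain the members had 2 calls in place of 1 with no filter on low counts and without empty-vector replicate 2, HDAC5 being added. Over all genes 6314 were called, and 5703 to 6550 in the alternatives.

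With the replicate number as a block 6400 genes and the same 4 members were called. Same-numbered libraries did not deviate together (correlations of deviations from the group means between -0.04 and 0.07), so the numbers were not treated as pairs. The median log2 fold change of the neighbours moved by less than their spread with 5 genes a side. Upper quartile factors moved the share of higher calls to 46.4%. FOSB and NR4A1, at 10 to 38 counts per library, are limited by depth.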

Other observations

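Some other genes of the lists were chosen after their values were seen. GJA1, the connexin 43 gap junction gene and an AP-1 target, fell from 3.75 ± 0.50 to 0.431 ± 0.162 CPM (± SD over 4 libraries each), which edgeR fitted as -3.10 on the log2 scale (adjusted p = 2.88e-08). MMP1, a collagenase gene with at most 30 counts in a library, rose with a log2 fold change of 1.52 (edgeR adjusted p = 0.00276). GJA1 and MMP1 passed the low-count filter only through the group where each was higher, so their p-values are given as description only. Neither gene was tested under the filter at a mean of 50 counts. The cytokine gene CXCL8 fell by 0.58 on the log2 scale (365 to 698 counts per library, edgeR adjusted p = 5.71e-07). IL6, also a cytokine gene, fell by 0.66 (30 to 74 counts per library, edgeR adjusted p = 0.0138). It was not called without empty-vector replicate 3 and not tested under the filter at a mean of 50 counts. BTG2, an antiproliferative immediate early gene, rose from 2.10 ± 0.37 to 4.98 ± 0.81 CPM (± SD over 4 libraries each), which edgeR fitted as 1.25 on the log2 scale (adjusted p = 2.92e-05).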
